A study of Mus musculus with 6 samples.

Results

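The genes described here encode the DNA replication machinery: 45 genes whose products recognize and license origins, unwind and copy DNA, and rebuild chromatin behind the fork. They were named by symbol and matched to Ensembl gene identifiers, and all 45 had a value among the 39179 identifiers deposited. Of these identifiers, 12785 reached at least 1 TPM (transcripts per 1000000) in at least 3 pools and were tested, all 45 replication genes among them. RNA-Seq was done on B cells sorted from the Peyer's patches of the ileum of WT C57BL/6 female mice aged 12 wk. GC B cells were sorted as Fas+ GL7+, and naive, or resting, B cells as Fas- GL7-, in 3 replicates each. Every replicate was a pool of mice, and the labels name no mutant allele and no treatment for either group. The FPKM values deposited hold no counts, and depth, estimated from their smallest steps, was about 9700000 to 16200000 reads per pool. Values of single pools are given below in the order of replicates 1, 2 and 3, and means with the SD over the 3 pools.

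Replication starts where the origin recognition complex (ORC) sits on DNA. In G1, Cdc6 and Cdt1 help ORC to load the Mcm2-7 ring, which is switched on in S phase when the Cdc7-Dbf4 kinase acts and Cdc45 and GINS join it. DNA polymerase alpha-primase then lays down primers, polymerases epsilon and delta extend them on the PCNA clamp, and the lagging strand is trimmed and sealed. GC B cells are known for their fast division, whereas naive B cells are quiescent.

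The regions before a RefSeq start of the genes that differed most, and of the single gene that was not called different, are shown first because E2F factors are known to switch on many replication genes through their promoters. RefSeq windows of GRCm38.p6, from 250 bases before to 50 bases after a start, were available for 37 of the 45 genes (46 windows). For Mcm4, Gins1, Gins2, Gins4, Gmnn, Prim2, Pole and Rfc2 no sequence is shown. Forms of the E2F site were searched on both strands, namely TTTCCCGC, TTTCGCGC, TTTGCCGC and TTTGGCGC, along with the CCAAT box. Bases of annotated untranslated regions are left out of the stretches below, which run 5′ to 3′ on the strand of the gene. Capitals mark E2F letters or the CCAAT box, which reads ATTGG where it lies on the other strand. Mcm10 (chr2:5012792-5013041, minus strand) held CCAAT in the stretch at 98 and 23 bases before the start. Cdc6 (chr11:98907982-98908150, plus strand) held 1 E2F match, at 138 bases before the start of its window, a start that lies within the gene, downstream of its outermost one. Cdc45 (chr16:18812079-18812222, minus strand) and Orc3 (chr4:34614991-34615192, minus strand) held neither in the stretches shown. Mcm6 (chr1:128359706-128359955, minus strand), chosen after the matches were counted because it had the most, held 3 E2F matches, 2 of them overlapping, and 2 CCAAT boxes.
Mcm10: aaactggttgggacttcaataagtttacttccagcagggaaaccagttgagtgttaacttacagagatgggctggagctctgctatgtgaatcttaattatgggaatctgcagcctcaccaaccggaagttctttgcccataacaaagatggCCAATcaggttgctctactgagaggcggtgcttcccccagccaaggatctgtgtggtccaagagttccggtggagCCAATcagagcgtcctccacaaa
Cdc6: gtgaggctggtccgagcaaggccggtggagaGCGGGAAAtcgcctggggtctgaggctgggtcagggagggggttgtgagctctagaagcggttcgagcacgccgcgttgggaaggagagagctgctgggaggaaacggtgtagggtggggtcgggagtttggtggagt
Cdc45: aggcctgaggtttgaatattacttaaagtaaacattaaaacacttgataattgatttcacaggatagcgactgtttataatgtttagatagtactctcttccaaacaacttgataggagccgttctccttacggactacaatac
Orc3: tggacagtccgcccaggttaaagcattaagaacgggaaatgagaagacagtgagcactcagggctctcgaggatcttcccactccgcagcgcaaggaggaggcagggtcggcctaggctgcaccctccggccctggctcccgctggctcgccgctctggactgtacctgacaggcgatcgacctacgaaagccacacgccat
Mcm6: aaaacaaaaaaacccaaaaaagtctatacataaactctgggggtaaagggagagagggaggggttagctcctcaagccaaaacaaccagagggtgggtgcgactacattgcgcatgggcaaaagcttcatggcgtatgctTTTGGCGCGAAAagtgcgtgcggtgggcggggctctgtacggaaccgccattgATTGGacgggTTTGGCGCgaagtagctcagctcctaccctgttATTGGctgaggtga

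In the bases left out, Orc3 held 1 E2F match (TTTCCCGC) at 41 bases before its start, within an annotated untranslated stretch of its neighbor Rars2 on the other strand. The start of the Orc3 window, like that of Cdc6, lies within the gene, downstream of its outermost one. Cdc45 held ATTGG at 13 and at 2 bases before its start, over an untranslated stretch of Ufd1l on the other strand. The window of Mcm10 held another CCAAT, at base 32 after the start. E2F letters were found in 15 of the 46 windows (32.6%), compared with 420 of 10204 windows of genes tested (4.12%) and 744 of all 32851 windows (2.26%). Counted by gene, 15 of 37 replication genes (40.5%) and 399 of 8029 genes tested (4.97%) had a match. The 15 genes with E2F letters were Orc1, Orc3, Cdc6, Cdt1, Mcm3, Mcm5, Mcm6, Mcm7, Gins3, Pola1, Pold1, Pold3, Pole2, Rfc3 and Lig1. Their median log2 difference between GC and naive B cells was 2.82 (0.06 to 4.81), and that of the 22 genes without a match was 2.38 (0.30 to 5.49). E2F letters were in the windows of Orc3, which was not called, and of strongly different genes such as Cdc6. The window of Mcm10, with the largest difference of all, held none. Whether the letters bear on the differences was not tested. CCAAT was present in 24 of the 46 windows (52.2%), in 38.6% of windows of genes tested and in 37.4% of all windows. The GC box GGGCGG was present in 34 (73.9%), in 62.2% of windows of genes tested and in 35.7% of all windows. The cell cycle homology region TTTGAA was found in 8 (17.4%), in 12.2% of windows of genes tested and in 17.9% of all windows. These matches are a description of the letters in the windows.

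Replication transcripts were far more abundant in GC than in naive B cells. Of the 45 genes, 44 were higher in GC B cells, none was lower, and Orc3 was not called (limma, adjusted p under 0.05). Among all 12785 genes tested, 65.6% were called in either direction and 35.5% were called higher in GC B cells. The 3 GC pools lay above the 3 naive pools for 44 of the 45 genes, and for 37.8% of all genes tested. The median log2 difference was 2.46 for the replication genes and 0.03 for all genes tested. In 36 of the 45 genes the log2 difference was at least 1, and in 27 at least 2, compared with 14.2% and 5.51% of all genes tested. Here and below a log2 difference is that of log2(TPM + 1), which understates the change of weakly expressed genes, and a fold is the ratio of mean TPM.

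As TPM is scaled by transcript length, levels of different genes can be added. Together, the 45 genes accounted for 5450, 5397 and 5550 TPM in the GC pools and for 1333, 1351 and 1337 TPM in the naive pools. The sums did not overlap, and their means were 5465 ± 77.6 and 1340.2 ± 9.76 TPM (SD, n = 3), a ratio of 4.08. Only 3 of the genes exceeded 100 TPM in naive B cells (Pold1, Pcna and Rpa1), whereas 18 did in GC B cells. Orc1, Cdc6 and Mcm10 were below 1 TPM on average in naive B cells, and 14 genes were below 10 TPM. The median coefficient of variation between pools was 3.82% in GC and 8.05% in naive B cells, so that the lower naive values were the less precise ones.

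**Figure D1:**
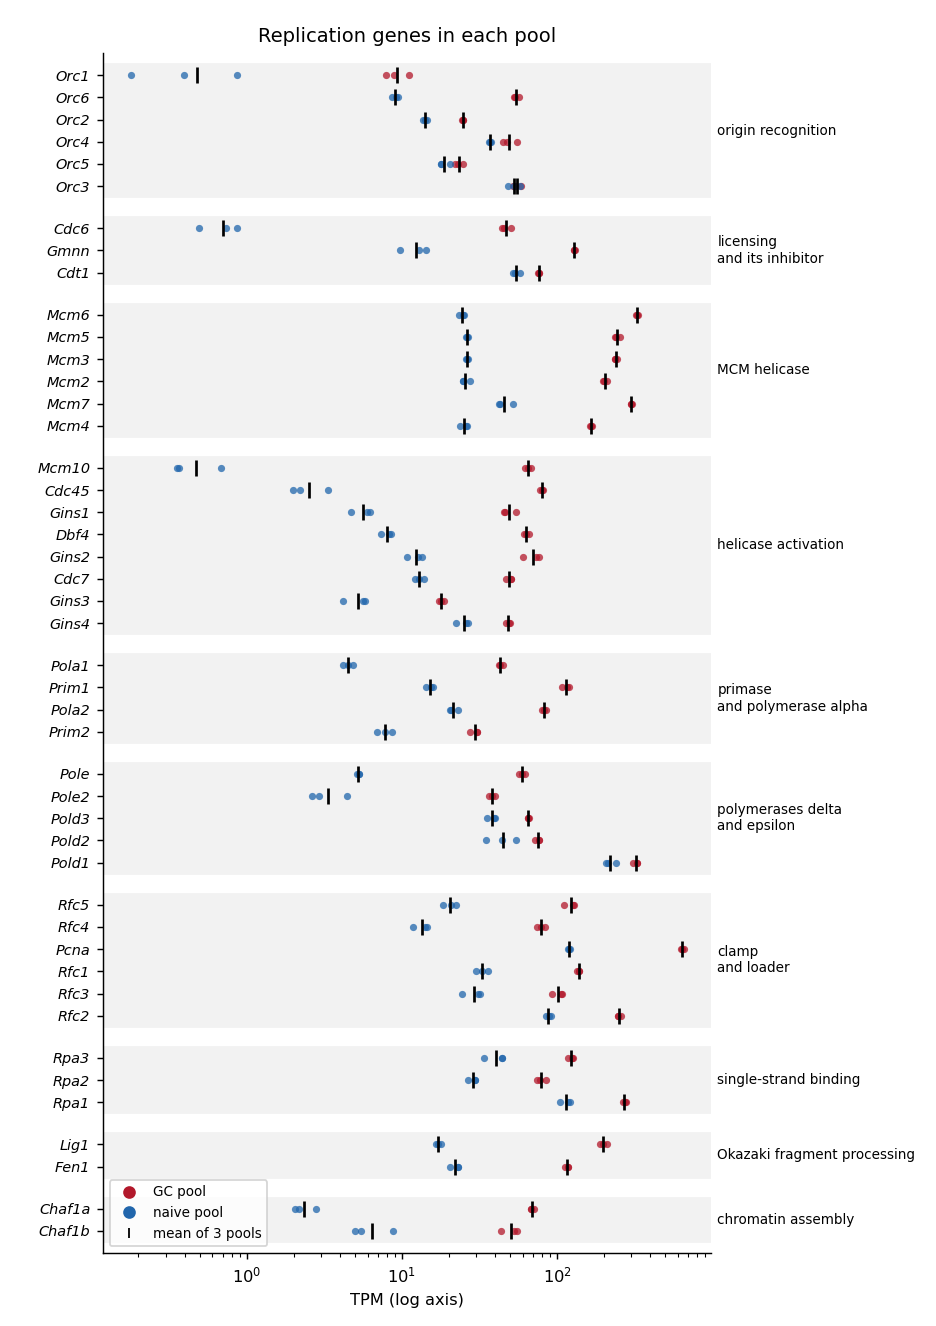
Level of each replication gene in the 3 GC pools (red) and 3 naive pools (blue), in TPM on a log axis, grouped by role. Black ticks are means of 3 pools. Red and blue points are separate in every row except that of Orc3, and naive points are spread widely for Orc1 and Mcm10, which are below 1 TPM.

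The populations also differed in cell cycle markers. All 8 markers of cycling cells examined were higher in GC B cells, and their summed level was 1047 to 1069 TPM in the GC pools and 10.46 to 13.1 TPM in the naive pools. Mki67, which is present in cycling cells, was at 228 and 0.785 TPM. A larger share of cycling cells and more RNA per cell cannot be told apart in these bulk samples. The 7 GC markers were all higher in GC B cells, and the 6 naive B cell markers with a value were all lower. The 5 general B cell markers were highly expressed in both populations, the least of them being Pax5 (183 and 229 TPM), although 4 of them were lower and 1 was higher in GC B cells. Markers of intestinal epithelium summed to 73.2, 154 and 83.8 TPM in the GC pools and to 240.1, 198.9 and 198.9 TPM in the naive pools, with 1 of 10 tested higher and 6 lower in GC B cells. Of 7 T cell markers, 6 were below 1 TPM in both populations, and Lck was at 131 and 65.5 TPM. Myeloid markers summed to 13.9 to 15.8 TPM in the GC and to 8.93 to 14.1 TPM in the naive pools. Most of this came from Cd68, which was higher in GC B cells (13.1 and 5.88 TPM). In contrast, the naive pools lay above the GC pools for Lyz2 (1.28 and 3.30 TPM, not called). The same held for Itgam (0.106 and 1.02 TPM) and Adgre1 (0.0461 and 0.696 TPM), which were too low to be tested. Plasma cell markers summed to 131 to 135 and to 192 to 212 TPM, mostly from Xbp1 and Irf4, whereas Prdm1 was higher in GC B cells (5.01 and 0.955 TPM). Of 5 stromal and endothelial markers, 4 were below 1 TPM, and Pecam1 was at 23.3 and 126 TPM. The part of cycling cells, or of these other cells, in the differences of the replication genes was not tested.

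Origin recognition was the role with the smallest differences. Of the 6 ORC genes, 5 were higher in GC B cells, but the median log2 difference was 0.58 and the summed level was 216 ± 3.42 TPM in GC B cells and 132 ± 6.23 TPM in naive B cells. Orc1 (ENSMUSG00000028587; chromosome 4, 108575705 to 108616030), the subunit whose level is known to follow the cell cycle, was measured at 11.2, 8.89 and 7.93 TPM in GC pools and at 0.392, 0.178 and 0.865 TPM in naive pools. Every GC pool was thus severalfold above the highest naive pool, and the ratio of the means was 19.5. Orc1 had a log2 difference of 2.82 ± 0.212 (SE, adjusted p = 4.89e-05), although it remained the least abundant of the 45 genes in GC B cells.

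Orc6, the smallest subunit, was at 53.2, 56.8 and 53.1 TPM in GC and at 9.21, 9.46 and 8.60 TPM in naive pools. The pools of each population were close together, and the means differed 5.98-fold (log2 difference 2.46 ± 0.0688, adjusted p = 6.69e-07). The remaining subunits were readily detected in naive B cells and had log2 differences below 1. Orc2 was at 24.6 ± 0.266 TPM in GC B cells and 14.1 ± 0.453 TPM in naive B cells (log2 difference 0.76, adjusted p = 8.24e-05). Orc4, an ATPase subunit, was at 55.1, 44.8 and 47.3 TPM and at 36.6, 36.9 and 37.6 TPM, with a log2 difference of 0.39 (adjusted p = 0.00636). In Orc4 the GC pools, replicate 1 above all, varied more than the naive pools but did not overlap with them.

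Orc5, another ATPase subunit, was at 23.0, 22.1 and 24.9 TPM in GC and 17.9, 20.5 and 17.8 TPM in naive pools. The lowest GC pool was just above the highest naive pool, and the log2 difference of 0.30 (95% confidence interval 0.10 to 0.51) had an adjusted p of 0.019. This was the weakest call: the adjusted p was 0.0649 without GC replicate 3 and 0.0613 without naive replicate 1. It was 0.0541 when genes with low values were not filtered out, and 0.0543 with the replicate number as a block. Orc3 (ENSMUSG00000040044; chromosome 4, 34566781 to 34614963), which forms part of the ORC core, was at 52.2, 58.7 and 54.7 TPM in GC and at 48.3, 57.3 and 53.2 TPM in naive pools. Here the pools overlapped, with the highest naive pool above GC replicates 1 and 3. The log2 difference of Orc3 was 0.06 with a 95% confidence interval of -0.13 to 0.26 (adjusted p = 0.531), and its level is therefore compatible with small differences in either direction.

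The 3 genes of licensing and its inhibitor showed very unequal differences. Cdc6 (ENSMUSG00000017499; chromosome 11, 98907709 to 98923942), the ATPase that with ORC recruits the helicase, was at 45.4, 44.0 and 50.2 TPM in GC pools and at 0.864, 0.493 and 0.736 TPM in naive pools. All naive pools were below 1 TPM, and the means differed 66.8-fold (log2 difference 4.81 ± 0.119, adjusted p = 4.23e-07). With a pseudocount of 0.1 and of 0.01 its log2 difference was 5.90 and 6.08. Cdt1, which escorts the helicase to the origin, was already abundant in naive B cells, at 57.4, 52.1 and 53.3 TPM, and reached 76.7, 75.6 and 76.8 TPM in GC pools. Its pools did not overlap, but its log2 difference was only 0.49 (95% confidence interval 0.36 to 0.62, adjusted p = 0.00028). Geminin (Gmnn), which binds and inhibits Cdt1, was at 131, 129 and 128 TPM in GC and at 9.73, 12.8 and 14.2 TPM in naive pools, a 10.6-fold difference (log2 difference 3.31, adjusted p = 2.46e-06).

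As a result, the order of Cdt1 and its inhibitor differed between the populations. The ratio of Gmnn to Cdt1 was 1.70, 1.71 and 1.67 in the GC pools, and 0.170, 0.246 and 0.266 in the naive pools. In other words, Cdt1 transcripts outnumbered Gmnn transcripts 3.76- to 5.89-fold in naive B cells, and Gmnn transcripts outnumbered those of Cdt1 in every GC pool. The ratio of Cdc6 to Cdt1 was 0.592, 0.582 and 0.654 in the GC pools and 0.0151, 0.00946 and 0.0138 in the naive pools. Cdt1 transcripts were therefore present in naive B cells nearly without those of its partner Cdc6.

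The 6 subunits of the MCM helicase differed together. Their summed level was 1483 ± 23.8 TPM in GC B cells and 174 ± 7.14 TPM in naive B cells, an 8.54-fold difference, and all log2 differences lay between 2.67 and 3.698. Mcm6 (ENSMUSG00000026355; chromosome 1, 128331575 to 128359705) had the largest difference of the ring, with 333, 322 and 329.8 TPM in GC and 24.7, 24.96 and 23.5 TPM in naive pools. The pools of each population differed little, and the log2 difference was 3.698 (95% confidence interval 3.59 to 3.81, adjusted p = 7.61e-08). Mcm4 had the smallest, with 163, 165 and 168 TPM in GC and 25.8, 23.6 and 26.3 TPM in naive pools (log2 difference 2.67, adjusted p = 2.81e-07). Even this smallest difference amounted to 6.55-fold. Mcm2, at 203 ± 5.71 TPM in GC B cells and 25.7 ± 1.61 TPM in naive B cells, differed 7.92-fold. Mcm3 was at 239.7 ± 2.54 TPM in GC B cells and 26.3 ± 0.451 TPM in naive B cells (9.11-fold). Mcm5 was at 244 ± 8.60 TPM in GC B cells and 26.2 ± 0.388 TPM in naive B cells (9.30-fold). In these subunits the SD was small compared with the difference. Mcm7, whose locus hosts the Mir25 and Mir93 hairpins, was at 299, 299 and 306 TPM and 42.1, 42.8 and 52.1 TPM, and naive replicate 3 was the highest of the naive pools (log2 difference 2.70, adjusted p = 1.09e-06).

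In naive B cells Mcm2 to Mcm6 all lay between 23.5 and 27.5 TPM and Mcm7 was highest. In GC B cells Mcm6 was the most abundant and Mcm4 the least. The highest subunit exceeded the lowest 1.95- to 2.04-fold in GC pools and 1.71- to 2.22-fold in naive pools. Thus the spread among subunit transcripts of the ring was similar in both populations. The lowest subunit was Mcm4 in every GC pool and Mcm2, Mcm4 and Mcm6 in naive replicates 1, 2 and 3.

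**Figure D2:**
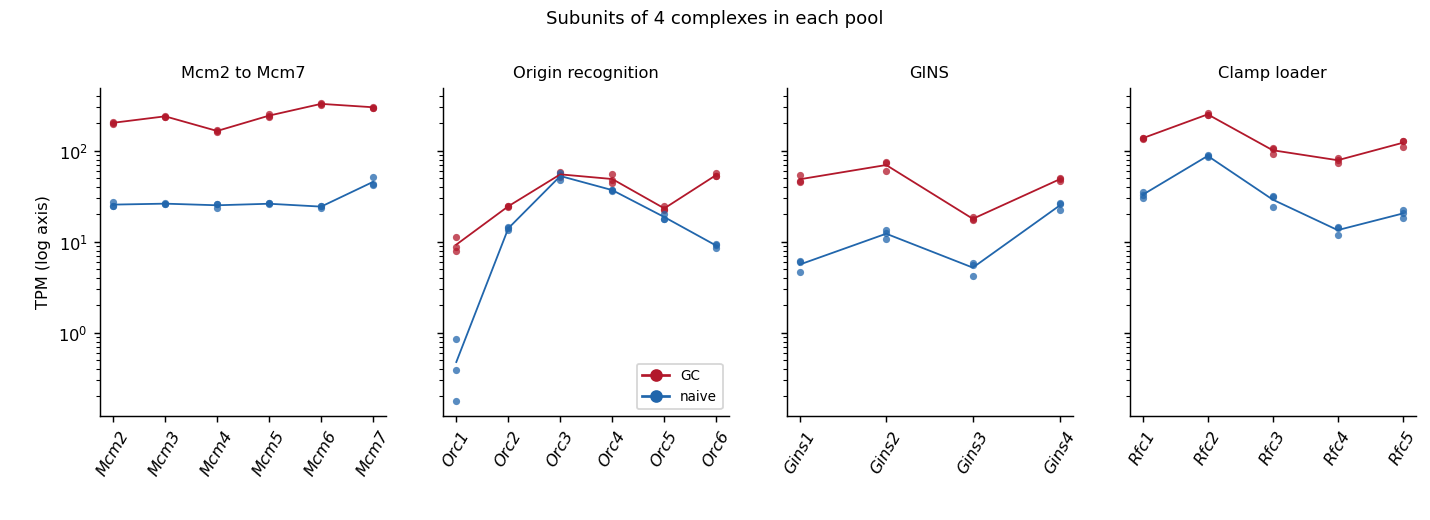
Levels of the subunits of the MCM ring, ORC, GINS and the clamp loader, in TPM on a common log axis, with points for single pools and lines through the means of 3 GC (red) and 3 naive (blue) pools. The lines run nearly parallel for the MCM ring, meet at Orc3 and diverge at Orc1 and Orc6, and come closest at Gins4 within GINS.

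The 8 factors that activate the helicase were all higher in GC B cells, with log2 differences from 0.94 to 5.49. Mcm10 (ENSMUSG00000026669; chromosome 2, 4990724 to 5012791), which takes part in starting the helicase and binds polymerase alpha, was at 65.1, 62.0 and 67.6 TPM in GC and at 0.365, 0.356 and 0.684 TPM in naive pools. No naive pool reached 1 TPM, and the log2 difference of 5.49 ± 0.116 (adjusted p = 2.81e-07) was the largest of the 45 genes. It was 6.88 and 7.15 with a pseudocount of 0.1 and of 0.01. The ratio of its means was 139, but the denominator rests on values of less than 1 TPM. Cdc45 (ENSMUSG00000000028; chromosome 16, 18780447 to 18811972), a component of the active helicase, was the most abundant gene of this role in GC B cells, at 81.2, 77.5 and 79.9 TPM, and was at 3.33, 1.998 and 2.19 TPM in naive pools (log2 difference 4.54, adjusted p = 1.17e-06). Its means differed 31.7-fold, and 209 of its 2252 exon bases overlap with Ufd1l on the opposite strand (61.5 and 67.9 TPM).

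The 4 GINS subunits, which bridge the MCM ring and Cdc45, were all higher in GC B cells but by different amounts. Gins1 was at 46.4, 45.2 and 54.5 TPM in GC and at 6.22, 5.98 and 4.67 TPM in naive pools (log2 difference 2.91, adjusted p = 3.91e-06). Gins2 was at 60.1, 76.1 and 73.6 TPM and at 10.7, 12.6 and 13.6 TPM (log2 difference 2.41, adjusted p = 8.34e-06). Its value is less certain, because 2758 of its 4097 exon bases lie opposite Gse1 (25.8 and 32.1 TPM) and the stated RSEM settings name no strand option, so that reads of both genes cannot be told apart there. Gins3 was the least abundant subunit in all 6 pools, at 17.9 ± 0.758 TPM in GC B cells and 5.21 ± 0.886 TPM in naive B cells (log2 difference 1.62). Gins4 had the smallest difference of this role, at 49.1, 49.9 and 47.0 TPM and 26.1, 26.7 and 22.3 TPM, with a log2 difference of 0.94 (95% confidence interval 0.74 to 1.13, adjusted p = 9.93e-05). In naive B cells Gins4 was the most abundant subunit, 4.48- to 5.31-fold above Gins3, whereas in GC B cells Gins2 was, 3.38- to 4.41-fold above Gins3.

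The kinase that fires origins followed a similar pattern. Its catalytic subunit Cdc7 was at 50.7, 46.7 and 50.3 TPM in GC and 13.8, 12.9 and 12.2 TPM in naive pools, 3.80-fold apart (log2 difference 1.85, adjusted p = 2.75e-06). Its activator Dbf4 was at 62.7, 61.5 and 66.1 TPM and 8.24, 7.28 and 8.52 TPM, 7.92-fold apart (log2 difference 2.84, adjusted p = 6.38e-07). The ratio of Dbf4 to Cdc7 was 1.24 to 1.32 in GC pools and 0.564 to 0.700 in naive pools. Transcripts of the activator thus outnumbered those of the kinase subunit in GC B cells only, and proteins were not measured.

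All 4 genes of the polymerase alpha-primase complex, which makes the primers, were higher in GC B cells, and their summed level was 269 ± 10.1 TPM there and 48.8 ± 2.22 TPM in naive B cells. The catalytic polymerase subunit Pola1 had the largest difference, at 44.6, 42.0 and 42.7 TPM in GC and 4.16, 4.52 and 4.83 TPM in naive pools (log2 difference 3.004, adjusted p = 5.64e-07). The catalytic primase subunit Prim1 was the most abundant in GC B cells, at 116, 108 and 119 TPM, compared with 15.5, 15.8 and 14.2 TPM in naive pools (log2 difference 2.83, adjusted p = 3.54e-07). The catalytic subunits thus differed 9.57- and 7.54-fold. The regulatory subunits differed less. Pola2 was at 82.5 ± 2.40 TPM in GC B cells and 21.4 ± 1.53 TPM in naive B cells (3.86-fold), and Prim2 was at 30.7, 27.6 and 30.4 TPM and 6.95, 7.80 and 8.57 TPM (3.80-fold, log2 difference 1.803, adjusted p = 1.04e-05).

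Among the polymerases that extend the primers, Pole and Pole2 differed more than the subunits of polymerase delta. Pole, the catalytic subunit of the leading strand polymerase, was at 59.3, 57.2 and 62.6 TPM in GC and at 5.32, 5.12 and 5.28 TPM in naive pools, a log2 difference of 3.28 (adjusted p = 2.81e-07). Its second subunit Pole2 was at 38.3 ± 1.77 TPM in GC B cells and 3.33 ± 0.976 TPM in naive B cells (log2 difference 3.20, adjusted p = 8.07e-06). Hence these epsilon genes were 11.4- and 11.5-fold higher in GC B cells. Pold1 (ENSMUSG00000038644; chromosome 7, 44532744 to 44548815), the catalytic subunit of the lagging strand polymerase, was at 326, 311 and 329 TPM in GC and at 207, 239.6 and 212 TPM in naive pools. It was the most abundant of all 45 genes in naive B cells, and with 1.47-fold its difference was among the smallest (log2 difference 0.55, 95% confidence interval 0.40 to 0.71, adjusted p = 0.00038). Pold2 was at 76.1, 76.6 and 72.1 TPM and 44.5, 34.9 and 54.6 TPM (log2 difference 0.76, adjusted p = 0.00473), with naive pools that varied more than GC pools. Pold3 was at 65.1 ± 0.757 TPM in GC B cells and 38.2 ± 2.44 TPM in naive B cells (log2 difference 0.76, adjusted p = 7.1e-05). The confidence intervals of the 3 delta genes, which ended at 0.71, 1.13 and 0.91, did not reach those of Pole and Pole2, which began at 3.12 and 2.81. This contrast leaves out the small epsilon subunits Pole3 (log2 difference 0.92) and Pole4 (log2 difference 0.12, not called), whose differences were below those of Pole and Pole2. The ratio of Pold1 to Pole was 38.8, 46.8 and 40.2 in naive pools and 5.50, 5.43 and 5.26 in GC pools.

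Pcna (ENSMUSG00000027342; chromosome 2, 132249286 to 132253180), the sliding clamp that holds the polymerases on DNA, was the most abundant replication transcript in GC B cells. It was at 631, 638 and 656 TPM in GC and at 122, 118 and 119 TPM in naive pools, with a log2 difference of 2.41 (95% confidence interval 2.32 to 2.50, adjusted p = 1.14e-07). Pools of each population differed little, and the populations were far apart. Reads of Pcna could be shared with 2 pseudogenes, of which Pcna-ps1 was listed at 0 in all pools and Pcna-ps2 at 0.331 TPM in GC replicate 1 alone.

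The 5 genes of the clamp loader, replication factor C, were all higher in GC B cells. Rfc5 had the largest difference, at 129, 111 and 128 TPM in GC and 20.7, 18.4 and 22.3 TPM in naive pools (log2 difference 2.53, adjusted p = 1.95e-06). Rfc2 had the smallest, at 260.0, 247 and 249 TPM and 88.4, 85.0 and 90.8 TPM (log2 difference 1.51, adjusted p = 8.85e-07), and was the most abundant subunit in every pool. The others were in between, with log2 differences of 2.47 for Rfc4, 2.03 for Rfc1, the large subunit, and 1.77 for Rfc3. Rfc4 was the least abundant subunit in every pool, at 78.9 ± 5.01 TPM in GC B cells and 13.5 ± 1.41 TPM in naive B cells, and 194 of its 1534 exon bases overlap with the far more abundant Eif4a2 on the opposite strand (483 and 738 TPM). The ratio of Rfc2 to Rfc4 was 3.10 to 3.37 in GC pools and 6.27 to 7.17 in naive pools. Transcripts of the clamp loader subunits were thus closer to equal levels in GC B cells.

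Replication protein A (RPA), which coats single-stranded DNA and also serves in DNA repair, showed a moderate and even difference. Rpa1, its large subunit, was at 267, 273 and 277 TPM in GC and 117, 121 and 104 TPM in naive pools (log2 difference 1.25, adjusted p = 7.52e-06). Rpa3, its smallest subunit, was at 124, 117 and 127 TPM and 43.9, 33.6 and 44.5 TPM (log2 difference 1.58, adjusted p = 3.92e-05). Rpa2 was in between in its difference, with 79.0 ± 5.61 TPM in GC B cells and 28.8 ± 1.67 TPM in naive B cells (log2 difference 1.42). All pools showed the same order of subunits, and Rpa1 exceeded Rpa2 3.21- to 3.75-fold in GC and 3.88- to 4.05-fold in naive pools.

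Of the genes that process Okazaki fragments, Lig1, the ligase that seals the lagging strand, was at 189, 199 and 209 TPM in GC and at 16.6, 17.0 and 17.9 TPM in naive pools, an 11.6-fold difference (log2 difference 3.46, adjusted p = 1.59e-07). Fen1, the nuclease that removes primer flaps, was at 113, 118 and 119 TPM and 23.1, 22.9 and 20.4 TPM, a 5.26-fold difference (log2 difference 2.34, adjusted p = 6.02e-07). In GC B cells Lig1 was the more abundant of both, whereas in naive B cells Fen1 was. The value of Fen1 is less certain, as 1909 of its 2422 exon bases lie opposite Gm10143 (3.96 and 1.35 TPM), and 130 opposite 1810006K21Rik (155 and 114 TPM). Other exon overlaps, of 64 to 499 bases, involve Orc1, Orc2, Orc4, Orc5, Mcm7, Pole, Rfc5, Lig1 and Chaf1a.

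Chromatin assembly factor 1 (CAF-1) deposits histones on the new DNA. Its large subunit Chaf1a was at 68.1, 67.8 and 71.1 TPM in GC and at 2.04, 2.16 and 2.79 TPM in naive pools, a log2 difference of 4.40 ± 0.104 (adjusted p = 3.71e-07). Its middle subunit Chaf1b was at 52.9, 43.6 and 54.9 TPM and 4.95, 5.42 and 8.73 TPM, a log2 difference of 2.83 ± 0.202 (adjusted p = 3.83e-05). Both were thus low in naive B cells, and the summed level of CAF-1 differed 13.7-fold, more than that of any other role. The ratio of Chaf1a to Chaf1b was 1.29, 1.56 and 1.30 in GC pools and 0.411, 0.399 and 0.320 in naive pools, again with a reversed order.

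**Figure D3:**
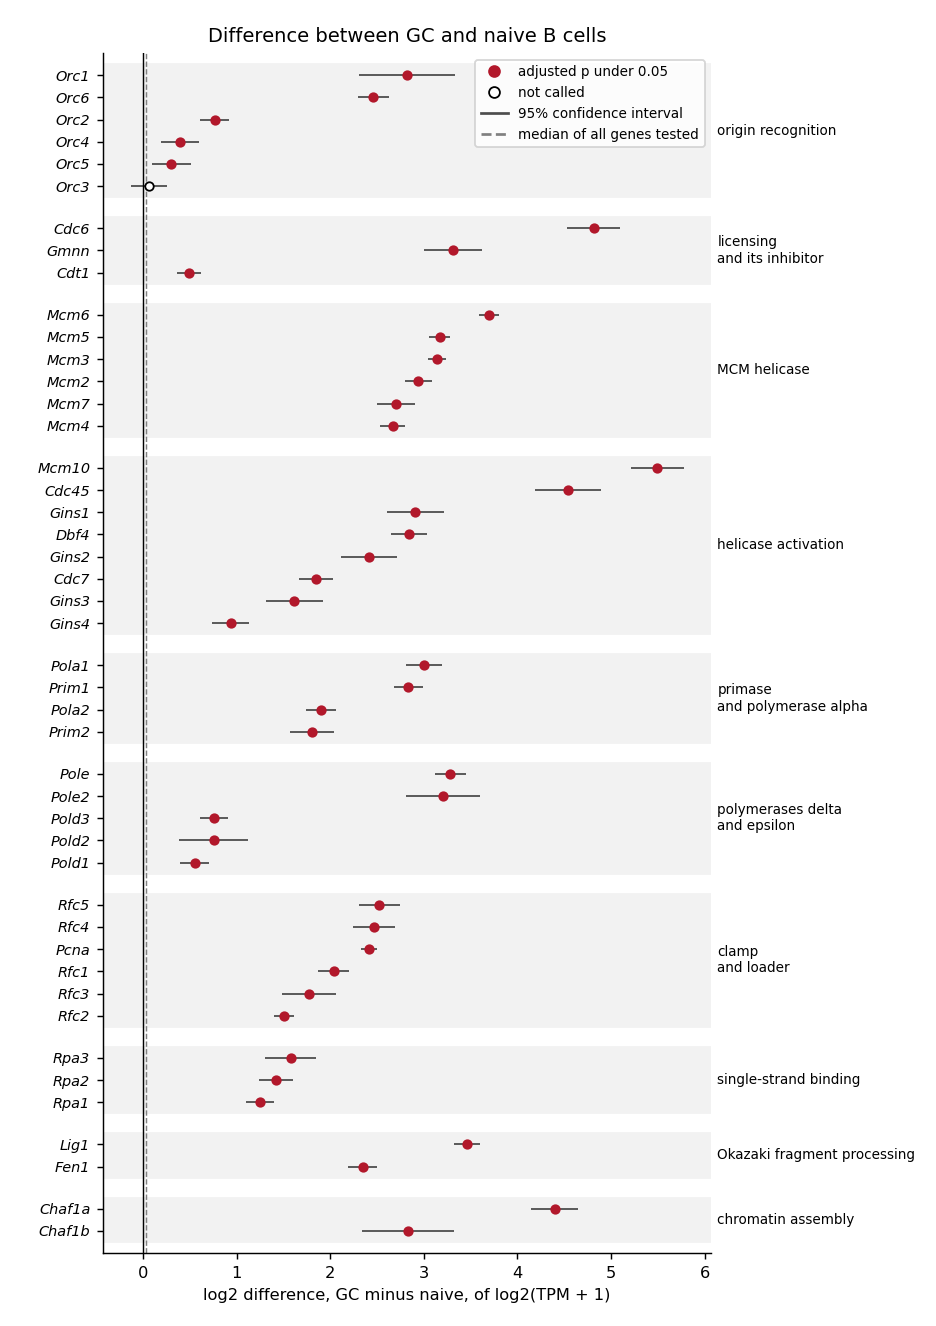
Log2 difference between GC and naive B cells for each replication gene, with its 95% confidence interval from limma, grouped by role. Filled red points passed an adjusted p of 0.05, and the open point, Orc3, did not; the dashed line is the median of all genes tested, 0.03. Within origin recognition, licensing, helicase activation and the extending polymerases, differences below 1 stand beside differences above 2.

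Across roles, then, the summed level differed least for origin recognition (1.63-fold), polymerases delta and epsilon (1.801-fold) and RPA (2.58-fold). It differed 3.75-fold for licensing with its inhibitor Gmnn, 4.39-fold for the clamp and its loader, 5.52-fold for polymerase alpha-primase and 6.13-fold for helicase activation. Abundant genes weigh most in these sums. Gmnn supplied 129 of 252 TPM in GC B cells and 12.2 of 67.2 TPM in naive B cells. Among polymerases delta and epsilon, Pold1 supplied 322 of 560 TPM in GC B cells and 219 of 311 TPM in naive B cells. The largest ratios were those of Okazaki fragment processing (8.03-fold), the MCM ring (8.54-fold) and CAF-1 (13.7-fold). In single genes, 9 of the 45 had a log2 difference below 1. These were Orc2, Orc3, Orc4, Orc5, Cdt1, Gins4, Pold1, Pold2 and Pold3. In the opposite direction, 4 genes had a log2 difference of at least 4, namely Mcm10, Cdc6, Cdc45 and Chaf1a. With a pseudocount of 0.1 or 0.01 in place of 1, Orc1 also passed 4 (4.20 and 4.52). The 5 most abundant replication transcripts were Pcna, Mcm6, Pold1, Mcm7 and Rpa1 in GC B cells, and Pold1, Pcna, Rpa1, Rfc2 and Cdt1 in naive B cells.

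**Figure D4:**
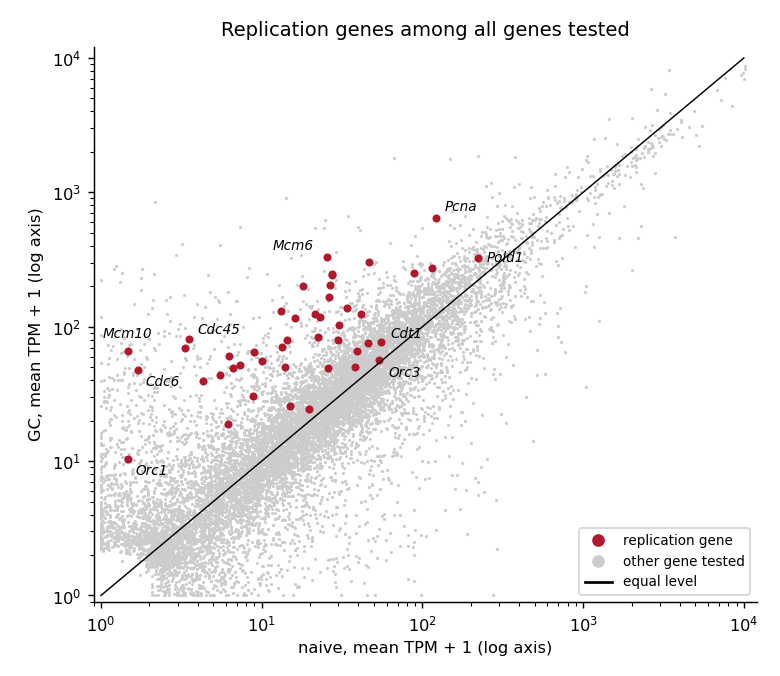
Mean level in GC against mean level in naive B cells (TPM + 1, log axes) for all 12785 genes tested (gray) and the 45 replication genes (red), each point a mean of 3 pools. The line marks equal levels. Red points lie above it, with Orc3 next to it and Mcm10, Cdc6 and Orc1 at the far left.

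Other genes of the replication pathway were examined for comparison. In a list of 38 such genes, 37 had an identifier and were tested, and Ticrr was not analysed here. Of the 37, 34 were higher in GC B cells, 1 was lower and 2 were not called. Among all genes tested, 35.5% were called higher in GC B cells and 65.6% in either direction. The median log2 difference of the 37 genes was 1.71, compared with 0.03 for all genes tested. Their summed level was 3993 ± 35.3 TPM in GC B cells and 1325 ± 36.2 TPM in naive B cells. The largest difference was that of Top2a, a topoisomerase that untangles the copied DNA, with 409, 392 and 422 TPM in GC and 5.10, 3.97 and 4.43 TPM in naive pools (log2 difference 6.22, adjusted p = 1.13e-07). Claspin (Clspn), which links the fork to the S phase checkpoint, followed at 94.6, 92.5 and 101 TPM and 0.783, 0.328 and 0.917 TPM (log2 difference 5.87, adjusted p = 4.87e-07). Uhrf1, which brings the maintenance methyltransferase to new DNA, was at 267, 267 and 277 TPM and 8.94, 7.01 and 6.15 TPM (log2 difference 5.03, adjusted p = 3.88e-07). In all of them the GC pools were far above the naive pools.

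Donson, a factor needed for stable forks, was the only gene of this list that was lower in GC B cells. It was at 28.8, 28.0 and 26.9 TPM in GC and 42.7, 39.0 and 36.8 TPM in naive pools, and the lowest naive pool was above the highest GC pool (log2 difference -0.49, 95% confidence interval -0.66 to -0.31, adjusted p = 0.00126). The genes that were not called were Rnaseh2c, a subunit of the ribonuclease that removes ribonucleotides from DNA, and Pole4, a small histone fold subunit of polymerase epsilon. Rnaseh2c was at 67.1, 98.4 and 83.9 TPM and 99.5, 76.5 and 70.8 TPM, with overlapping pools (log2 difference 0.01, 95% confidence interval -0.41 to 0.44, adjusted p = 0.951). Pole4 was at 140.3, 128 and 139 TPM and 126, 110.4 and 141 TPM, also with overlapping pools (log2 difference 0.12, 95% confidence interval -0.11 to 0.34, adjusted p = 0.309). The interval of Pole4 thus ended far below those of Pole and Pole2, which belong to the same enzyme.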

How the data were processed

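RNA was sequenced from GC and naive B cells, in 3 pools of mice for each group. The authors used the NEB NEXT Ultra kit, removed adapters with cutadapt 1.9, ran RSEM 1.2.25 against mouse transcripts (NCBIm38 v75), and deposited 1 FPKM value for each gene in each pool, rounded to 2 decimals. The submitters' processing notes also name CASAVA 1.8, FastQC and edgeR, of which the role of edgeR is not given in the sources used here. The RSEM settings that the methods list name no strand option. RSEM divides reads of near-identical genes by a model, so genes with close copies are less certain.

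Each deposited FPKM was rescaled to TPM, so that every pool sums to 1000000. FPKM totals were 717537 to 774597. Approximate depth was read from the smallest FPKM steps among single-transcript genes of 250 to 900 bases and was about 11000000, 10000000 and 10000000 reads in GC replicates 1 to 3 and 11800000, 16200000 and 9700000 in naive replicates 1 to 3. Only 59.2% to 66.0% of low values lay within 0.1 of a whole read, so no count test was run, and no counting interval is given. The 12785 genes that reached 1 TPM in 3 or more pools were compared on log2(TPM + 1) with limma 3.58.1 in R 4.3.3 (lmFit, eBayes with a trend, two-sided), with Benjamini-Hochberg adjustment over all genes tested and a threshold of 0.05. All adjusted p values are from this test, and all intervals are its 95% confidence intervals. The p-values set the difference between the groups against the spread between the 3 pools of each, moderated over all genes tested. Variation between single mice is not measured, as every replicate is a pool.

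Symbols were taken from a reference table of mouse gene identifiers, which named 33398 of 39179 identifiers, and gene coordinates are those of RefSeq on GRCm38.p6, the assembly of the authors' annotation. Exon overlaps and untranslated regions were taken from GENCODE vM1 on NCBIM37. Promoter windows are RefSeq's on GRCm38.p6. Other steps used Python 3.11.15, pandas 2.3.3 and matplotlib 3.10.9. The 45 members, the other lists and the tests were chosen with earlier results of these data known. Every member is named; pool values are given for those with the largest and smallest difference and the highest level of each role, and for others where a comparison needs them. Of the wider list, the 3 largest differences and the genes lower or not called are named. Other settings tried were a pseudocount of 0.1 or 0.01, no filter or a mean of at least 5 TPM, FPKM as deposited, quantile and median-ratio scaling, eBayes without a trend, the replicate number as a block, and leaving out each pool. Some single marker genes are not reported here.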

Additional observations from a re-analysis of the deposited data

How the results depend on the processing

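Of the 45 genes, 43 kept their direction and their side of the threshold under all alternatives that gave them a value. Orc5 lost its call without a filter on low values (adjusted p = 0.0541), with the replicate block (0.0543), without GC replicate 3 (0.0649) and without naive replicate 1 (0.0613). The log2 difference of Orc3 was -0.0596 under quantile normalization, ranged from -0.0019 (without naive replicate 1) to 0.12 (without naive replicate 2) when single pools were left out, and was called in none of the alternatives. The median log2 difference of the 45 genes was 2.55 with a pseudocount of 0.1 and 2.55 with 0.01, 2.37 with FPKM as deposited and 2.36 with quantile normalization. The ratio of summed levels was 3.93 with FPKM and 3.99 with median-ratio scaling. Leaving out single pools gave 2.43 to 2.48 for the median, 4.05 to 4.10 for the ratio, 7656 to 8101 genes called, 43 to 44 replication genes called and 33 to 34 of the wider list. Over the other alternatives, 32 (quantile normalization) to 35 of the wider list were called, against 35 in the comparison reported. With a pseudocount of 0.1 and of 0.01, the log2 difference was 4.20 and 4.52 for Orc1, 6.88 and 7.15 for Mcm10, and 5.90 and 6.08 for Cdc6. Over all alternatives 6879 to 8530 genes were called, and the median of all genes lay between -0.06 and 0.05. The causes were not tested.

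Both populations carry the replicate numbers 1 to 3, and no source says that equal numbers mark the same mice. Correlations of the residuals of same-numbered pools were 0.0830, 0.0225 and 0.0456. Those of differently numbered pools ranged from -0.0746 to 0.0298. Naive replicates 1 and 3 correlated best with the GC pool of the same number, whereas naive replicate 2 correlated best with GC replicate 3 (0.0298). With the replicate block, 7960 genes were called, including 43 of the 45 replication genes and 34 of the wider list. Depth limits the weakly expressed genes, above all Orc1, Cdc6 and Mcm10 in naive B cells, and 3 pools per group limit all tests.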

Other observations

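A few genes of the wider replication list were singled out after their values had been seen, because partners of one complex or family differed to unequal extents. The histone chaperone Asf1b was at 155 ± 13.2 TPM in GC B cells and 5.95 ± 1.58 TPM in naive B cells (log2 difference 4.51, adjusted p = 1.97e-06). Its paralog Asf1a was at 42.6 ± 2.79 TPM in GC B cells and 13.4 ± 0.971 TPM in naive B cells (log2 difference 1.60, adjusted p = 9.06e-06). Of the RNase H2 subunits, Rnaseh2b was at 70.2 ± 6.75 TPM in GC B cells and 12.9 ± 1.15 TPM in naive B cells (log2 difference 2.36, adjusted p = 3.51e-06), and the catalytic Rnaseh2a at 60.7 ± 4.56 TPM in GC B cells and 47.2 ± 3.71 TPM in naive B cells (log2 difference 0.36, adjusted p = 0.00858), whereas Rnaseh2c was not called. In the small subunits of the extending polymerases, Pole3 had a log2 difference of 0.92 and Pold4 of 0.31 (adjusted p = 0.000124 and 0.00101). Dtl, an adaptor of the ubiquitin ligase that removes Cdt1 protein during S phase, was at 44.5 ± 4.24 TPM in GC B cells and 0.586 ± 0.0904 TPM in naive B cells (log2 difference 4.84, adjusted p = 3.22e-07). Cdt1 transcripts had a log2 difference of 0.49, and Cdt1 protein was not measured.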
